A study of Mus musculus with 4 samples.

Results

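Keratins, the intermediate filament proteins of epithelial cells, were examined in EO771, a mouse mammary carcinoma cell line, after exposure to adipose fatty acid binding protein. Members were all genes whose symbol on the array is Krt followed by a digit, measured by a probe set annotated to that gene alone. Keratin-associated protein genes and 1 pseudogene, Krt74, were left out. This gave 52 keratin genes of 22180 genes in all. For Krt18, the 1 member with 2 probe sets, the one with the higher mean over the 4 arrays was used. Krt5 had no probe set of its own and is not analysed here. The rule used symbols and mean levels and no difference between groups, but it was set with earlier results of these data known.

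The groups were EO771 cells given recombinant mouse A-FABP (the protein of Fabp4, which carries fatty acids inside fat cells and macrophages and is also secreted) at 100 ng/ml, with 2 arrays, and EO771 cells given PBS, with 2 arrays. Both were grown in RPMI medium, and the labels state no length of treatment. Titles call the arrays biological replicates of each group. The free-text description of the PBS arrays also names A-FABP, whereas their titles and source names mark them as controls, and groups follow the titles. The question posed is how added A-FABP bears on transcript levels in tumour cells. All results come from 1 cell line in culture.

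Keratins assemble as pairs of a type I and a type II protein, and the genes of each type lie together in a chromosomal cluster. Simple, single-layered epithelia, including the luminal cells of the mammary gland, make Krt8 and Krt18, often with Krt7, Krt19 or Krt20. Basal cells of stratified epithelia and mammary myoepithelial cells make Krt5 and Krt14, whereas other members belong to the differentiating layers of skin and mucosa, to the sheath around the hair root or to the hair shaft itself. Keratin patterns are used to describe the lineage of carcinoma cells. The 52 genes were divided accordingly into 6 simple keratins, with Krt23 placed among them, 3 basal, 15 suprabasal and stress, 8 inner root sheath and companion layer, 15 hair shaft and 5 other keratins.

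Promoter sequence of 5 keratins is given for orientation. Krt23 had the highest difference and Krt20 is its neighbour, Krt8 and Krt18 encode partner proteins, and Krt90 had the lowest difference. Each runs 5′ to 3′ from 250 bases before to 50 bases after the start of the gene in RefSeq (build GRCm38.p6). Capitals mark matches, on either strand, to a TATA box (TATAAA), a GC box (GGGCGG), AP-1 (TGANTCA), NF-kB (GGGA and CC with any 4 bases between them) or an E-box (CACGTG). Matches to different motifs do not overlap in these sequences.
Krt23 promoter, chr11:99493071-99493370, minus strand: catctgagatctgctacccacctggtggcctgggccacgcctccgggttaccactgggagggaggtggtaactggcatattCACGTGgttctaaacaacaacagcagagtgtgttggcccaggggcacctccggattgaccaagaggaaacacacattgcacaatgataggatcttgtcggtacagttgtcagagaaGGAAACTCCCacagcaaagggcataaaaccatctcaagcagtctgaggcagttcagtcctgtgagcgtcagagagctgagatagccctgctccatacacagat
Krt20 promoter, chr11:99438104-99438403, minus strand: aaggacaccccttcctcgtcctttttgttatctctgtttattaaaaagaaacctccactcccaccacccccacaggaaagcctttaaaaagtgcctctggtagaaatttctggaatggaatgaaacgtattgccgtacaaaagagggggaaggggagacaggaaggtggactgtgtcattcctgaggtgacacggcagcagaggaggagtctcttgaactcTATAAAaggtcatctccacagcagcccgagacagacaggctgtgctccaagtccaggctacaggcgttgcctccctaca
Krt8 promoter, chr15:102004293-102004592, minus strand: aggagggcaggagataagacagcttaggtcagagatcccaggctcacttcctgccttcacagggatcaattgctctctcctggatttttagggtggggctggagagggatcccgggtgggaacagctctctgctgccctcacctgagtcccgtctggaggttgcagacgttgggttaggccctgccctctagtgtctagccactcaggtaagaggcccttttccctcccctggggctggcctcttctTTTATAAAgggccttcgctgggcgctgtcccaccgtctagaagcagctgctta
Krt18 promoter, chr15:102027966-102028265, plus strand: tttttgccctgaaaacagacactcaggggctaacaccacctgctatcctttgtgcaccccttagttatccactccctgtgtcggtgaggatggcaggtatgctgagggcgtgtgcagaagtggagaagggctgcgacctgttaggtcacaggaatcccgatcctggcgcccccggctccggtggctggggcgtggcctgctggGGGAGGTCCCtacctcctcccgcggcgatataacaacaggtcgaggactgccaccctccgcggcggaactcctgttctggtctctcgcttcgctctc
Krt90 promoter, chr15:101562901-101563200, minus strand: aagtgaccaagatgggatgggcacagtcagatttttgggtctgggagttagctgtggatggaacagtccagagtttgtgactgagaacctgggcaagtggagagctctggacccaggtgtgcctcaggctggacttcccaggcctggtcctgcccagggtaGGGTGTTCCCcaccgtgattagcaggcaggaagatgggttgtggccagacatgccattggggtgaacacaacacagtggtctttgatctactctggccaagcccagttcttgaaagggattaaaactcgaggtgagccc
The Krt20 promoter held a TATA box 29 bases before the start, and the Krt8 promoter held overlapping matches on both strands at the start itself. Krt23, Krt18 and Krt90 each held 1 NF-kB match, at 53, 47 and 89 bases before the start, and Krt23 also held an E-box 169 bases before it. RefSeq promoters were matched for 35 of the 52 members, giving 36 sequences. Of these, 19 held the TATA box, against 13.6% of all 32851 promoters in the table. The NF-kB letters stood in 8 of 36, against 20.7% of all promoters; besides Krt23 these were Krt13, Krt14, Krt18, Krt36, Krt79, Krt82 and Krt90. Only 2 of 36 held the GC box (35.7% of all promoters), 3 an E-box (7.15%) and 2, both of Krt13, the AP-1 letters (7.81%). A match is a stretch of letters and was not tested as a binding site.

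No keratin passed the adjusted threshold. In the limma fit over 41345 probe sets the lowest adjusted p of a keratin was 0.296, which was also the lowest on the array, and 0 of 22180 genes were called (0%). All differences below are therefore values and not calls, on the log2 scale as A-FABP minus PBS, with the SE or the 95% confidence interval of that fit. At an unadjusted p under 0.05 in limma, 1 keratin lay higher with A-FABP (Krt23) and 6 lay lower (Krt4, Krt15, Krt32, Krt36, Krt72 and Krt90). Over all genes these shares were 4.81% higher and 8.24% lower, against 1.92% and 11.5% of keratins. With 2 arrays per group the smallest two-sided p of an exact permutation test is 0.33.

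**Figure D1:**
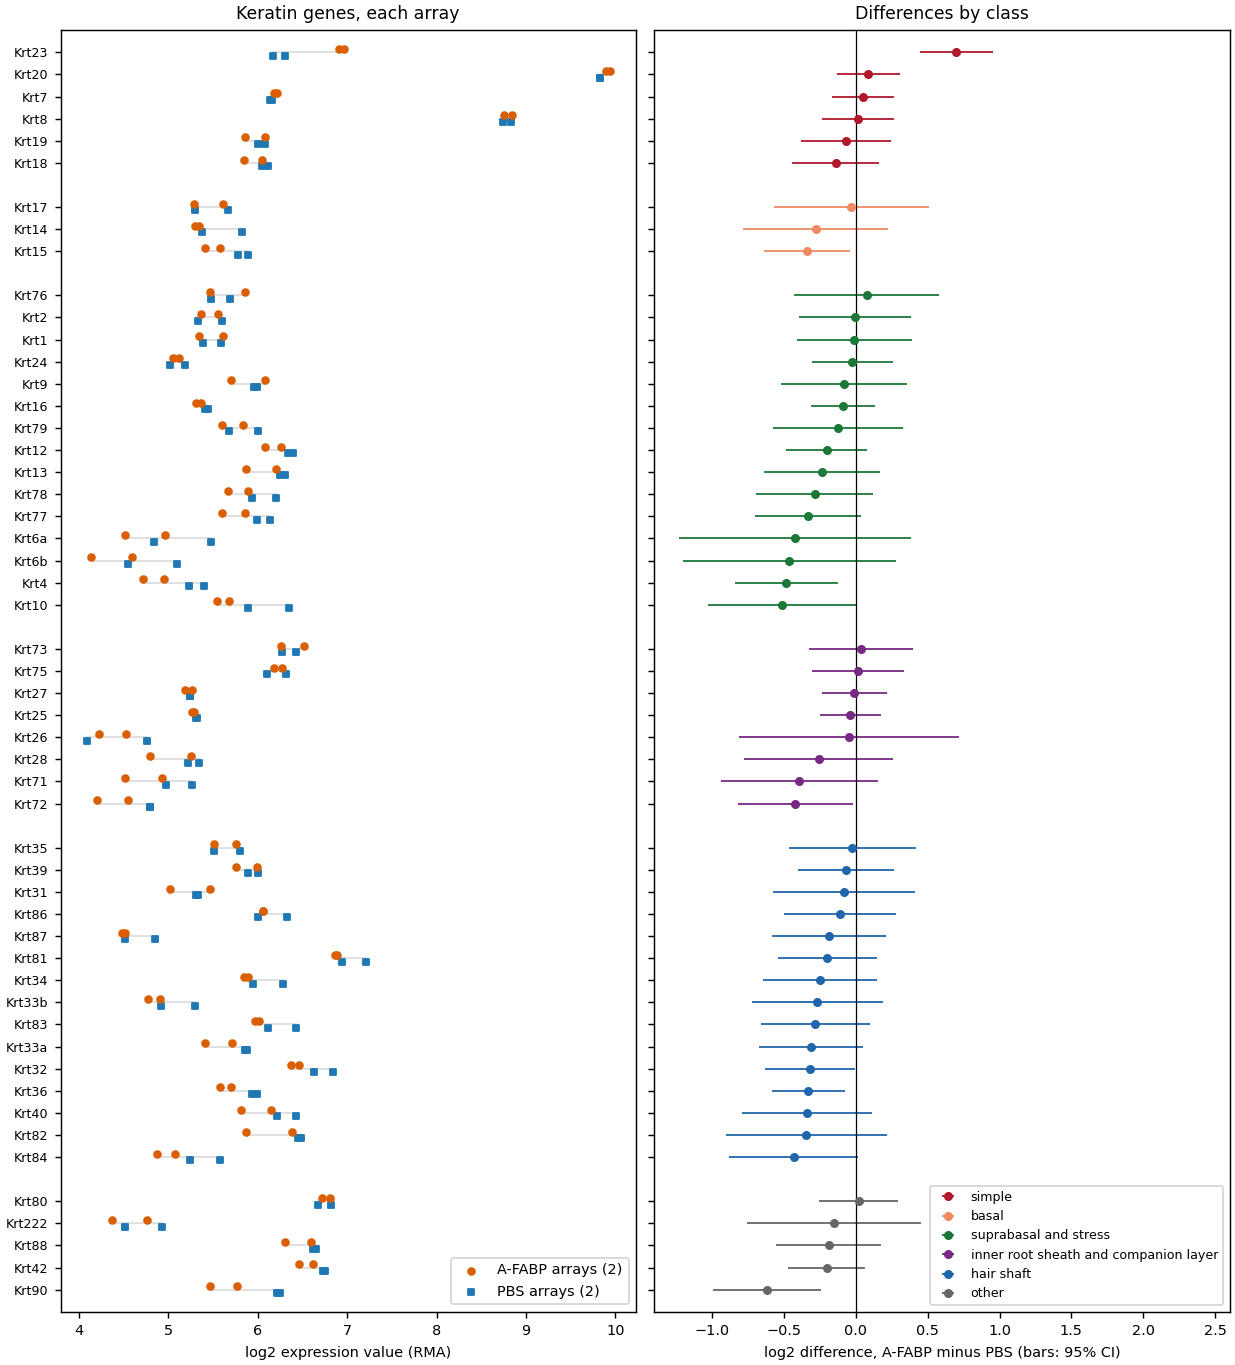
Left, the log2 value of each of the 52 keratin genes on the 2 A-FABP arrays (circles) and the 2 PBS arrays (squares), by class; right, the log2 difference with its 95% confidence interval (bars). Krt23 is the gene whose interval lies wholly above 0 (0.44 to 0.95), and Krt90 has the lowest difference (-0.62).

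Krt23, a type I keratin made in glandular and digestive tract epithelia, was the keratin that stood out on the higher side. It had log2 values of 6.97 and 6.91 on the A-FABP arrays, against 6.30 and 6.18 on the PBS arrays. The groups did not overlap, and the gap between them was several times the gap within either. The difference was 0.70 ± 0.09 (SE, 2 arrays per group), or 1.62-fold, with a 95% confidence interval of 0.44 to 0.95 (limma unadjusted p = 0.00168, adjusted p = 0.296). It ranked 68 of 22180 genes from the highest difference down. The 3348 genes with a mean level between 6 and 7, where Krt23 falls, had a median difference of -0.10, and 2291 of them lay below 0.

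The other simple keratins differed little. Krt8, the type II partner of the luminal pair, had log2 values of 8.76 and 8.85 with A-FABP, against 8.83 and 8.74 with PBS. The groups overlapped fully, and the difference was 0.02 with a 95% confidence interval of -0.24 to 0.27. Its sign turned to between -0.07 and -0.05 under cyclic loess, repeated quantile normalization and removal of the trend on mean level.

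Krt18, its type I partner, had log2 values of 6.04 and 5.84 with A-FABP, against 6.04 and 6.12 with PBS. One A-FABP array matched the lower PBS array, and the difference was -0.14 (95% confidence interval -0.44 to 0.16). It was -0.24 without A-FABP replicate 1, -0.04 without A-FABP replicate 2 and between -0.07 and -0.03 under the other scalings and with the trend on mean level removed. Its dimmer probe set gave -0.18 ± 0.10 (SE), at 5.12 and 5.00 with A-FABP against 5.31 and 5.18 with PBS.

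Krt20, a keratin of intestinal and urothelial lining cells, was the member with the brightest probe set, at 9.90 and 9.94 with A-FABP, against 9.82 and 9.83 with PBS. Both A-FABP arrays lay above both PBS arrays, but the difference was 0.09 with an interval of -0.13 to 0.31, and values of 0.03 to 0.15 under the other scalings. Equally bright genes, with means of 9 to 11, had a median difference of 0.05. Krt7, the type II keratin of many glandular ducts, had values of 6.18 and 6.22 with A-FABP, against 6.14 and 6.16 with PBS. Here too the groups did not overlap, by a margin of hundredths, and the difference was 0.05 (-0.17 to 0.27), or 0.11 to 0.15 under the other scalings and with the trend removed. Krt19, the smallest type I keratin and a marker of ductal cells, had 6.09 and 5.86 with A-FABP, against 6.08 and 6.01 with PBS, which overlapped. Its difference was -0.07 (-0.38 to 0.25), with the sign turning to 0.04 when the trend on mean level was removed or A-FABP replicate 2 left out; it was -0.18 without A-FABP replicate 1.

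Among the 6 simple keratins, both A-FABP arrays lay above both PBS arrays in 3 and below them in 0. Over all genes the first order was found in 26% and the second in 27.5%. These shares varied with mean level. At levels of 6 to 7, where Krt7 and Krt23 lay, they were 16.1% and 41.2%. At levels of 9 to 11, where Krt20 lay, they were 47.3% and 12.6%. The median difference of the class was 0.03, and 0.02 without Krt23, against -0.01 over all genes. The class median kept its sign under the other settings tried, between 0.02 and 0.10.

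Basal keratins lay on the lower side, without calls. Krt15, made in basal keratinocytes and hair follicle stem cells, had log2 values of 5.58 and 5.41 with A-FABP, against 5.78 and 5.89 with PBS. The groups were apart, and the difference was -0.34 ± 0.11 (SE; limma unadjusted p = 0.0347, adjusted p = 0.308), and -0.20 with the trend on mean level removed. Krt14, the type I partner of Krt5 in basal and myoepithelial cells, had 5.30 and 5.35 with A-FABP, against 5.38 and 5.83 with PBS. The higher PBS array, replicate 2, set most of the difference of -0.28 (95% confidence interval -0.78 to 0.23), which was -0.05 without it and -0.50 without replicate 1. Krt17, a keratin of basal and wounded epithelium, had 5.28 and 5.62 with A-FABP, against 5.30 and 5.66 with PBS. Replicates differed far more than groups here, and the difference of -0.03 (-0.57 to 0.51) turned to 0.03 after median centring and 0.09 after cyclic loess. All 3 probe sets lay below the array medians of 5.95 to 6.03. Their mean levels were between 5 and 6, where 3821 of 4885 genes lay below 0, at a median of -0.15. Of those 4885 genes, 16.0% were lower at an unadjusted limma p under 0.05.

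Suprabasal and stress keratins, which mark differentiating skin, mucosa, cornea and activated epidermis, lay below 0 in 14 of 15 genes, with a median of -0.20 that was -0.11 without A-FABP replicate 2. Of all genes 11618 of 22180 lay below 0, and of those at mean levels of 4 to 7 8044 of 10962. After median centring 11 of the 15 lay below 0, and after cyclic loess or removal of the trend on mean level 9 did, at medians of -0.14, -0.13 and -0.11. Krt4, a type II keratin of the lining of mouth and oesophagus, had log2 values of 4.95 and 4.72 with A-FABP, against 5.23 and 5.40 with PBS. The groups did not overlap, and the difference was -0.48 ± 0.13 (SE; limma unadjusted p = 0.0202, adjusted p = 0.296). Its type I partner Krt13 lay at -0.23 ± 0.14, with values of 6.21 and 5.87 with A-FABP, against 6.24 and 6.30 with PBS. Krt10, the keratin of the differentiating epidermis, had the lowest difference of the class, -0.51 with a 95% confidence interval of -1.03 to 0.01. Its values were 5.54 and 5.68 with A-FABP, against 5.90 and 6.35 with PBS, and the PBS arrays were farther from each other than the nearest arrays of the 2 groups. Krt1, its type II partner, lay at -0.01 (-0.41 to 0.39), with overlapping groups.

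Krt12, the keratin of the corneal epithelium and the brightest probe set of this class, had values of 6.26 and 6.08 with A-FABP, against 6.40 and 6.34 with PBS. Its groups were apart by less than 0.1, at a difference of -0.20 (-0.48 to 0.08) that was -0.11 without A-FABP replicate 2. The stress keratins Krt6a and Krt6b, which are induced in wounded epidermis, are near copies of each other, so signal may be shared between their probe sets and their values are uncertain. Krt6a had 4.52 and 4.96 with A-FABP, against 4.84 and 5.48 with PBS. Krt6b had 4.14 and 4.59 with A-FABP, against 4.55 and 5.10 with PBS. In both genes replicate 2 was the higher array of each group and the groups overlapped, with differences of -0.42 ± 0.29 and -0.46 ± 0.26 (SE). Their partner Krt16 was steadier, at -0.09 ± 0.08.

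Keratins of the inner root sheath and companion layer, which surround the growing hair, had a median of -0.04, and their median turned to 0.02 after median centring, 0.06 after cyclic loess and 0.04 with the trend on mean level removed. Krt72 had log2 values of 4.55 and 4.21 with A-FABP, against 4.80 and 4.79 with PBS. Both A-FABP arrays were lower, at a difference of -0.42 ± 0.14 (SE; limma unadjusted p = 0.0447, adjusted p = 0.322) that was -0.25 without A-FABP replicate 2. Krt73, the brightest probe set of the class, had 6.52 and 6.26 with A-FABP, against 6.43 and 6.28 with PBS, which overlapped at a difference of 0.04 (-0.33 to 0.40). Krt71 lay at -0.39 ± 0.20, while Krt25 and Krt27 lay at -0.04 and -0.01, each with an SE of 0.08. Overlap of the groups was found in 5 of the 8 genes, and in 10323 of all 22180 genes.

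Hair shaft keratins, the cysteine-rich keratins of hair, lay below 0 in 15 of 15 genes, with a median of -0.27 and a range of -0.43 to -0.02. In 11 of 15 both A-FABP arrays lay below both PBS arrays, an order seen in 27.5% of all genes and in 41.4% of the 10962 genes at mean levels of 4 to 7, where all hair shaft keratins lay. Krt36 had log2 values of 5.58 and 5.70 with A-FABP, against 5.996 and 5.939 with PBS. The groups were clearly apart, at -0.33 ± 0.09 (SE; limma unadjusted p = 0.0229, adjusted p = 0.298). Krt32 had 6.38 and 6.46 with A-FABP, against 6.85 and 6.63 with PBS. Its difference was -0.32 ± 0.11 (SE; limma unadjusted p = 0.0485, adjusted p = 0.328), and -0.21 without PBS control replicate 1. Krt81, the brightest probe set of the class, had 6.87 and 6.88 with A-FABP, against 7.21 and 6.94 with PBS. The A-FABP arrays nearly coincided, whereas the PBS arrays were spread, and the difference of -0.20 (-0.54 to 0.15) was -0.06 without PBS control replicate 1.

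Krt84 had the lowest difference of the class, -0.43 (95% confidence interval -0.88 to 0.02), with values of 4.88 and 5.08 with A-FABP, against 5.58 and 5.24 with PBS. Hair keratins include close copies, such as Krt33a and Krt33b or Krt81, Krt83 and Krt86, so their probe sets may share signal. Krt33a and Krt33b lay at -0.31 and -0.27, and Krt81, Krt83 and Krt86 at -0.20, -0.28 and -0.11. With each array centred on its median 14 of 15 hair shaft keratins lay below 0, and 12 did after cyclic loess or removal of the trend on mean level. The class medians were then -0.20, -0.19 and -0.17.

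Krt90, a type II keratin, was the member with the lowest difference of all. It had log2 values of 5.77 and 5.47 on the A-FABP arrays, against 6.22 and 6.26 on the PBS arrays. Both A-FABP arrays lay below the PBS arrays, which nearly coincided, whereas the A-FABP arrays were spread. The difference was -0.62 ± 0.13 (SE), or 1.54-fold lower, with a 95% confidence interval of -0.99 to -0.24 (limma unadjusted p = 0.0105, adjusted p = 0.296). Genes at mean levels of 5 to 6 had a median difference of -0.15. The difference was -0.47 without A-FABP replicate 2. Krt80, a type II keratin of many epithelia, had 6.72 and 6.81 with A-FABP, against 6.82 and 6.67 with PBS, and overlapped at 0.02 (-0.25 to 0.30). Krt42, Krt88 and Krt222 lay at -0.20, -0.19 and -0.15.

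**Figure D2:**
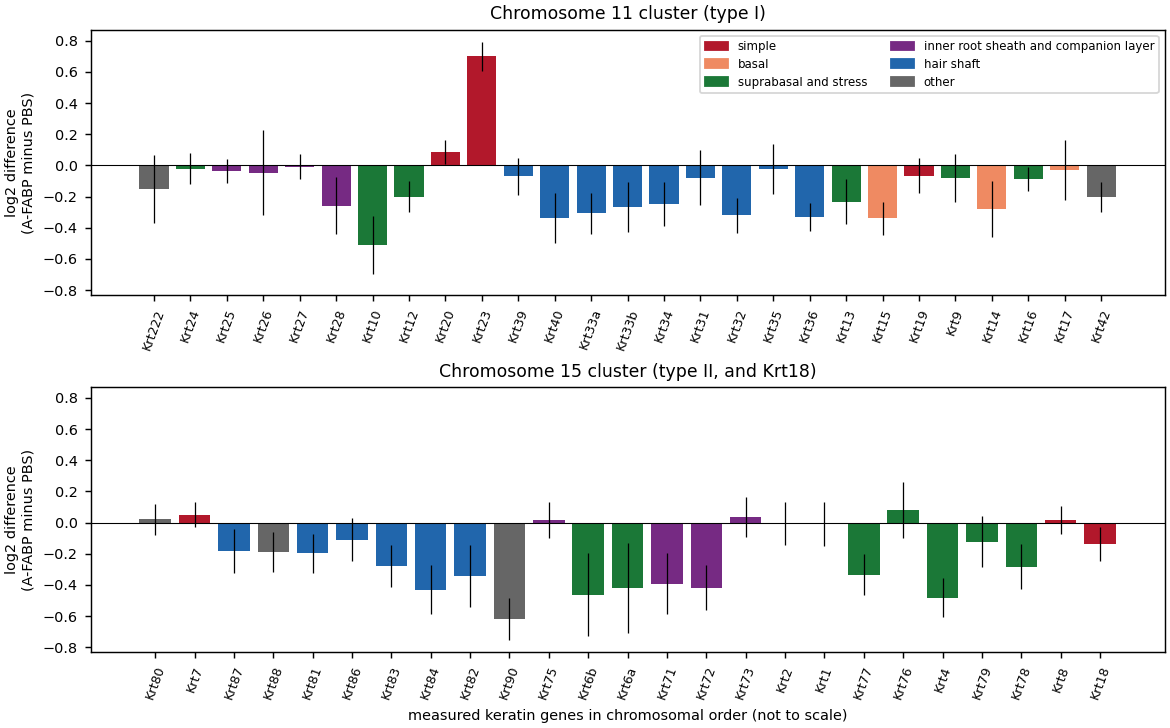
Log2 difference (A-FABP minus PBS) of each measured keratin in chromosomal order, with SE bars; 27 genes of the chromosome 11 cluster above and 25 of the chromosome 15 cluster below, coloured by class. Krt20 (0.09) and Krt23 (0.70) stand side by side above 0 while their neighbours Krt12 (-0.20) and Krt39 (-0.07) lie below it.

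By chromosomal position, the type I cluster on chromosome 11 and the type II cluster on chromosome 15, which also holds Krt18, gave similar values. Medians were -0.15 over 27 genes and -0.19 over 25 genes, with 25 and 19 genes below 0. Around Krt23 the measured neighbours in RefSeq order (GRCm38.p6) had mixed values. On one side lay Krt20 at 0.09 and then Krt12 at -0.20, and on the other side Krt39 at -0.07 and Krt40 at -0.34. Krt8 and Krt18, adjacent members at the end of the chromosome 15 cluster, lay at 0.02 and -0.14.

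Across all keratins the A-FABP arrays were the lower ones. Of 52 genes, 44 lay below 0, the median difference was -0.19 (quartiles -0.32 and -0.03) and both A-FABP arrays lay below both PBS arrays in 26. That order held for 50% of keratins and 27.5% of all genes. The opposite order held for 3 keratins, or 5.77%, and for 26% of all genes. Median values over the 52 genes were 5.80 and 5.65 on the A-FABP arrays, against 5.91 and 5.95 on the PBS arrays.

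These figures have to be read beside the level of the probe sets, because on these arrays dim genes as a whole lay lower with A-FABP. Mean levels were between 4 and 7 for 50 of the 52 keratins. The 10962 genes in that range had a median difference of -0.12, against -0.19 for the 50 keratins. Both A-FABP arrays lay below both PBS arrays in 41.4% of those genes and in 52.0% of the 50 keratins. An unadjusted limma p under 0.05 on the lower side was found in 14.4% of those genes and in 12.0% of the 50 keratins, so the share of keratins was not above that of dim genes. The part of mean level in the keratin values was not tested beyond the adjustment given next. With the median difference of equally bright probe sets subtracted, 32 of 52 keratins lay below 0 at a median of -0.10. All genes then had a median of -0.01. In that fit 2 keratins in place of 6 were lower at an unadjusted limma p under 0.05, or 3.85%, against 4.86% of all genes. Those were Krt4 and Krt90, and Krt23 was again the 1 higher keratin. Of all genes 4.04% were higher.

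**Figure D3:**
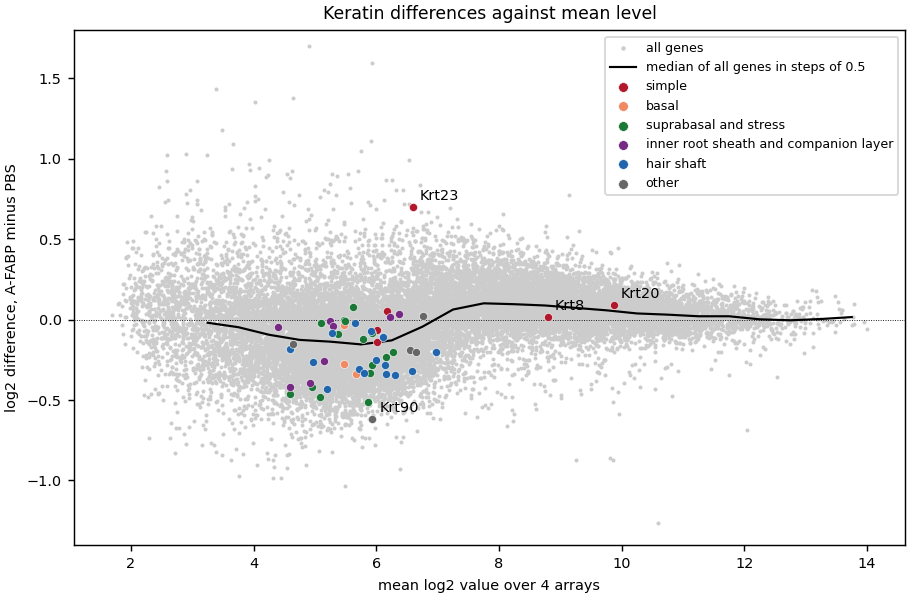
Log2 difference (A-FABP minus PBS) against mean log2 value over the 4 arrays for all genes (grey) and the 52 keratins (coloured by class); the black line is the median of all genes in steps of 0.5 of mean level. Most keratins fall at levels of 4 to 7, where the median of all genes was -0.12, while Krt8 and Krt20 are brighter. Krt23 lies at 0.70, at levels of 6 to 7 where the highest gene reached 0.99.

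Replicate spread was wider for keratins than for genes in general. The median gap between replicates was 0.21 in the A-FABP group and 0.16 in the PBS group, against 0.11 and 0.10 over all genes. Among genes at mean levels of 4 to 7 the gaps were 0.15 and 0.14. The median half-width of the 95% confidence interval was 0.38 for keratins, so a keratin difference below that size could not usually be told from 0. Leaving out A-FABP replicate 2, the array with the lowest keratin median, brought the keratin median difference to -0.12.

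Of the 7 keratins with an unadjusted p under 0.05, Krt23 kept it in all 13 other settings tried, 4 of which leave out 1 array, with limma unadjusted p-values of 0.000607 to 0.0133 and differences of 0.64 to 0.76. With an array left out, the lone array is assumed to vary like the pair of the other group, so these p-values rest on that pair. Krt90 kept it in 11 of 12, losing it without PBS control replicate 2 (limma unadjusted p = 0.054, no exact test run), and Krt4 in 9 of 12. Krt15, Krt32, Krt36 and Krt72 kept it in 3 or 4, and lost it under median centring, cyclic loess and repeated quantile normalization. After adjustment none passed in any setting. The lowest adjusted p of a keratin in limma was 0.157, for Krt23 with dim probe sets filtered out. The settings are not independent of each other. Each of these 7 keratins has 1 probe set, and none is a repeated row. Averaging over probe sets and leaving out repeated rows thus nearly repeat the deposited fit. The filter, variance moderation and replicate block change the p-value but not the difference.

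**Figure D4:**
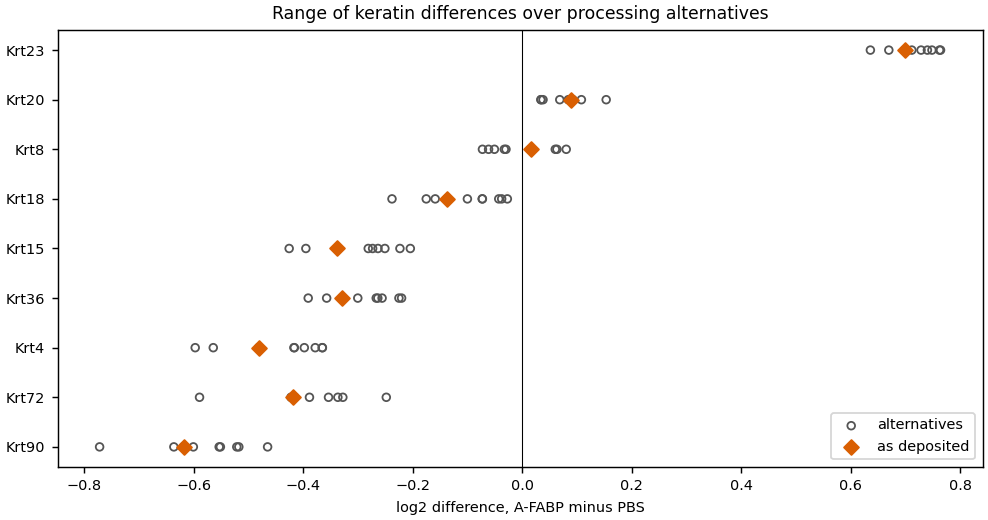
Log2 difference (A-FABP minus PBS) of 9 keratins as deposited (filled diamonds) and under the processing alternatives (open circles). Krt23 stays between 0.64 and 0.76 and Krt90 between -0.77 and -0.47, while the values of Krt8 fall on both sides of 0.

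Other intermediate filament genes lay closer to 0, although a difference from the keratins was not tested. Over 17 measured genes of 18 the median difference was 0.03, with 8 below 0. They were also brighter, with 8 of 17 at mean levels above 7, against 2 of 52 keratins. All genes at mean levels of 7 to 9 had a median difference of 0.09, against -0.12 at 4 to 7. The part of mean level in this contrast was not tested. Vim, the filament protein of mesenchymal cells, was very bright, at 13.92 and 13.95 with A-FABP, against 13.95 and 13.95 with PBS, a difference of -0.02 (-0.23 to 0.20) that turned to 0.05 after median centring and was -0.14 as the mean over the gene's probe sets. Prph, which encodes the neuronal filament protein peripherin, lay at 0.33 ± 0.08, with 7.26 and 7.25 with A-FABP, against 6.96 and 6.88 with PBS. Ina, which encodes internexin, another neuronal filament protein, lay at -0.38 ± 0.10, with 5.01 and 4.95 with A-FABP, against 5.27 and 5.45 with PBS. At an unadjusted p under 0.05, 1 gene of the list was higher and 1 lower (4.81% and 8.24% of all genes).

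Genes that anchor or bind keratin filaments had a median of 0.01 over 19 measured genes of 20, with 13 above 0. Of these 19 genes, 8 had mean levels above 7, where all genes lay higher than at 4 to 7. Plec, which encodes plectin, the linker of filaments to hemidesmosomes and the cytoskeleton, had 8.996 and 8.888 with A-FABP, against 8.70 and 8.75 with PBS. The groups did not overlap, at 0.22 with an interval of -0.03 to 0.46, and 0.13 with the trend on mean level removed. Sfn, which encodes the keratinocyte 14-3-3 protein, was the 1 gene of the list with an unadjusted p under 0.05, or 5.26% lower, against 8.24% of all genes. It lay at -0.31 ± 0.10 (SE), with 7.97 and 7.99 with A-FABP, against 8.20 and 8.37 with PBS. Dsp, which encodes the desmosomal linker desmoplakin, lay at 0.00 (-0.46 to 0.47), with values that overlapped and a sign that turned to -0.19 without PBS control replicate 2.

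Transcription factors that act on keratin genes in skin, hair or glands had a median of -0.06 over 20 genes, with 15 below 0, 2 lower and 0 higher at an unadjusted p under 0.05. Lower genes were thus 10.0% of the list, against 8.24% of all genes and 14.4% of genes at mean levels of 4 to 7. Lef1, a factor of the Wnt pathway needed for hair and mammary gland formation, lay at -0.54 ± 0.10 (SE), with 5.55 and 5.35 with A-FABP, against 5.98 and 5.9968 with PBS. Msx2, a homeobox factor of hair and mammary development, lay at -0.42 ± 0.08, with 4.71 and 4.62 with A-FABP, against 5.09 and 5.07 with PBS. Trp63, the master factor of basal epithelium, was dim, at 5.28 and 5.33 with A-FABP, against 5.34 and 5.61 with PBS, and lay at -0.17 (-0.52 to 0.18), which was -0.31 without PBS control replicate 1 and -0.03 without replicate 2. Epithelial surface genes had a median of -0.06 over 10 genes, of which 5 lay below 0. Ocln, which encodes the tight junction protein occludin, was higher at 0.33 ± 0.10, with 7.71 and 7.55 with A-FABP, against 7.34 and 7.26 with PBS. It was the 1 gene of these 10 with an unadjusted limma p under 0.05. Of all genes 4.81% were higher at that p, and 460 of the 4629 genes at mean levels of 7 to 9, whose median difference was 0.09. Cldn7, which encodes a claudin, lay at -0.42 with an interval of -0.93 to 0.09. Its values were 5.09 and 5.12 with A-FABP, against 5.75 and 5.29 with PBS, so the PBS arrays were spread. Both A-FABP arrays lay below both PBS arrays, an order found in 4 of the 10 epithelial surface genes. That order held for 44.6% of all genes at mean levels of 5 to 6, where Cldn7 lay.

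Few markers of epithelial lineages had a mean level above 7 over the 4 arrays. Of all 22180 genes, 9161 had a mean level above 7. Of 10 luminal markers, 1 did (Krt8). Epcam, a surface protein of most epithelia and the dimmest of the 10, lay at 4.45 and 4.85 with A-FABP, against 4.79 and 5.05 with PBS. Of 8 markers of skin and hair keratinocytes, 0 had a mean level above 7, with a range of 3.83 to 5.86. Among 6 measured basal or myoepithelial markers it was 1, the smooth muscle actin gene Acta2. Against a lower mark, the median of 5.99 over all probe sets, the picture differed. Above it lay 7 of the 10 luminal, 3 of the 6 basal or myoepithelial and 0 of the 8 skin and hair markers. Of all 22180 genes, 12545 lay above that median. Levels of different probe sets do not give relative amounts of mRNA, and detection was not called.

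Markers of other cell types had medians of -0.21 for leukocytes (7 genes), -0.06 for adipocytes (7), -0.03 for endothelial cells (6) and 0.01 for fibroblasts (8). At an unadjusted p under 0.05 the lower genes were Itgam (-0.34) and Ptprc (-0.45) of leukocytes, Cidea (-0.47) and Cebpa (-0.28) of adipocytes, Tie1 (-0.29) of endothelium and Mfap5 (-0.39) of fibroblasts, with 0 genes higher in these lists. Over all genes 8.24% were lower and 4.81% higher, and 14.4% were lower at mean levels of 4 to 7, the range that holds all 6 of these genes. Median log2 values of the leukocyte markers were 5.40 and 5.12 with A-FABP, against 5.58 and 5.66 with PBS. The defining leukocyte marker Ptprc was dim, at 3.997 and 3.996 with A-FABP, against 4.58 and 4.32 with PBS. In the same list Cd68 was bright, at 12.70 and 12.80 with A-FABP, against 12.82 and 12.84 with PBS, and Csf1r lay at 0.16 with both A-FABP arrays above. Eng of the endothelial list and Col1a1 of the fibroblast list lay at 0.20, also with both A-FABP arrays above. The part of other cell types in the keratin values was not tested.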

How the data were processed

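Per the submitters' processing notes, the authors made the deposited log2 expression values, 1 per probe set and array, with RMA and Partek 6.6. No array design, probe set definition or genome build is stated in the labels. RMA compresses differences near background. Scanner intensities were not used here, and precision is limited by having 2 arrays in each group. The platform annotation named 1 gene for 23521 of 41345 probe sets. The probe set with the highest mean over 4 arrays stood for each gene.

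Differences, A-FABP minus PBS, were fitted with R 4.3.3 and limma 3.58.1, using lmFit and eBayes on the whole table, two-sided, with Benjamini-Hochberg adjustment over all probe sets and a threshold of 0.05. The fit was also run on simulated data drawn from its own variance model, without a trend on mean level. That run does not test the fit where such a trend is present. All 52 keratins matched RefSeq by gene identifier (GRCm38.p6, used for names, gene order and promoters). Named genes were fixed by rule: the simple and basal keratins, and in each other class the highest mean level and up to 4 genes with the lowest unadjusted p under 0.05. For lists it took up to 4 such genes plus Vim, Plec, Dsp and Trp63. Krt1, Krt6a, Krt6b, Krt10, Krt13, Krt84, Epcam, Cldn7 and further keratins and list genes were added after their values were seen. The members and lists were chosen with earlier results of these data known. Alternatives covered scaling, a filter on dim probe sets, variance moderation, arrays left out, a replicate block, probe set choice, repeated rows and the trend on mean level.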

Additional observations from a re-analysis of the deposited data

How the results depend on the processing

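The number of keratins past the adjusted threshold was 0 in every setting, and 1 keratin, Krt23, was higher at an unadjusted p under 0.05 in every setting. The number lower at an unadjusted p under 0.05 was 6 as deposited, or 11.5%, against 8.24% of all genes. It was 2, or 3.85%, after median centring, cyclic loess, repeated quantile normalization or removal of the trend on mean level. The last was chosen after seeing the data. Lower shares over all genes were then 4.72%, 4.79%, 6.51% and 4.86%, in that order. With only the 20 keratins above the median level tested, 1 was lower, or 5%, against 6.9% of all genes above that level. With 1 array left out, between 39 and 45 of the 52 keratins lay below 0. The median keratin difference was -0.19 as deposited, -0.10 with the trend on mean level removed, and between -0.20 and -0.12 with 1 array left out; other settings gave values in between. Replicate numbers are shared by the groups, but deviations of same-numbered arrays correlated at -0.00889, so the numbers were not taken as pairs. With the replicate block 5 keratins were lower and 1 higher, at a median of -0.19. Lower genes were then 9.62% of keratins and 6.6% of all genes, and 3.26% of all genes were higher.

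Of 424 values of 34 named genes under these settings, 23 changed sign, all of genes close to 0, and 401 did not. The value of Vim under repeated quantile normalization, 0.0, has no sign and was counted among the 401. Part of the 401 were fixed in advance. The filter on dim probe sets, variance moderation, the replicate block and leaving out repeated rows cannot change a difference. Averaging over probe sets cannot either for a gene with 1 probe set. The count therefore overstates how stable the signs were. Median centring gave 0.0346 for Krt17 and 0.0476 for Vim. Cyclic loess gave -0.0508 for Krt8, 0.0276 for Krt19, 0.0893 for Krt17 and 0.0279 for Vim. Repeated quantile normalization gave -0.0615 for Krt8, 0.0003 for Krt19 and 0.0385 for Krt17. Removal of the trend gave -0.0727 for Krt8, 0.0431 for Krt19 and 0.0815 for Krt17. With 1 array left out, Krt8 ranged from -0.0327 to 0.0634, Krt17 from -0.21 to 0.15, Krt19 from -0.18 to 0.0433, Krt73 from -0.0907 to 0.16, Krt80 from -0.055 to 0.0977 and Dsp from -0.19 to 0.19. The cause of these changes was not tested.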
